A study of Mus musculus with 6 samples.

Results

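Interleukins are secreted signals between leukocytes, epithelia and stroma, and most act through receptors built from a private chain that binds the ligand and a chain shared by several ligands. The genes described here are all those whose symbol is Il followed by a digit, outside the interleukin-1 family: symbols that start with Il1a, Il1b, Il1r, Il1f, Il18, Il33, Il34 or Il36 were left out. The rule found 54 of the 17794 genes with values: 20 ligand genes, 32 receptor genes and 2 genes, Il4i1 and Il4i1b, that carry the prefix but encode an L-amino acid oxidase. Transcripts were measured by RNA sequencing in whole mouse corneas from 2 groups of 3 libraries each, the first treated with luteolin, a plant flavone, for 10 days and the second with vehicle for 10 days. Both groups came from an experimental dry eye model made with benzalkonium chloride, a surfactant used as a preservative in eye drops and harmful to corneal epithelium. Strain, age and sex are not given in the labels, nor whether a library is 1 animal or a pool, and the p-values below therefore rest on how far the 3 libraries of a group vary, a spread that may be technical.

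In the cornea, epithelial cells and keratocytes carry receptors for several interleukins, while many of the ligands and the receptor chains of the lymphocyte cytokines are made by leukocytes that enter the tissue when it is injured. IL-6 type cytokines signal through gp130, the common gamma chain serves IL-2, IL-4, IL-7, IL-9, IL-15 and IL-21, and IL-17 type cytokines act on epithelia through paired IL-17 receptor chains. In whole-cornea RNA, fewer cells of a type and less RNA per cell cannot be told apart.

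After luteolin, most receptor chains that could be tested had lower transcript levels, as had the ligands Il15, Il16 and Il24, and levels were higher for Il20rb, Il17re and Il4i1. Reads were too few to test 26 of the 54 members, among them 16 of the 20 ligands. Of the 28 members tested with edgeR's quasi-likelihood test, 18 fell (64.3%), 3 rose (10.7%) and 7 did not pass an adjusted p of 0.05. Among all 13838 genes tested, 58.9% passed, 30.4% as lower and 28.5% as higher, so a passing test was common in these data. The median log2 fold change (luteolin minus vehicle) was -0.80 over the 28 members and -0.02 over all tested genes. Of the 28, 6 reached the minimum read level only in vehicle libraries (Il2ra, Il2rb, Il7r, Il21r, Il13ra2 and Il24) and so entered the test through the group in which they were high. Il2rg reached that level in 1 luteolin library and 3 vehicle libraries, and it too passed the filter through the vehicle group. For that reason the counts and the median describe the tested members and not the whole family. The groups did not overlap for 22 of the 28, against 67.4% of all tested genes: all luteolin libraries were below all vehicle libraries for 19 members (33.7% of all tested genes) and above them for 3 (33.8%).

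**Figure D1:**
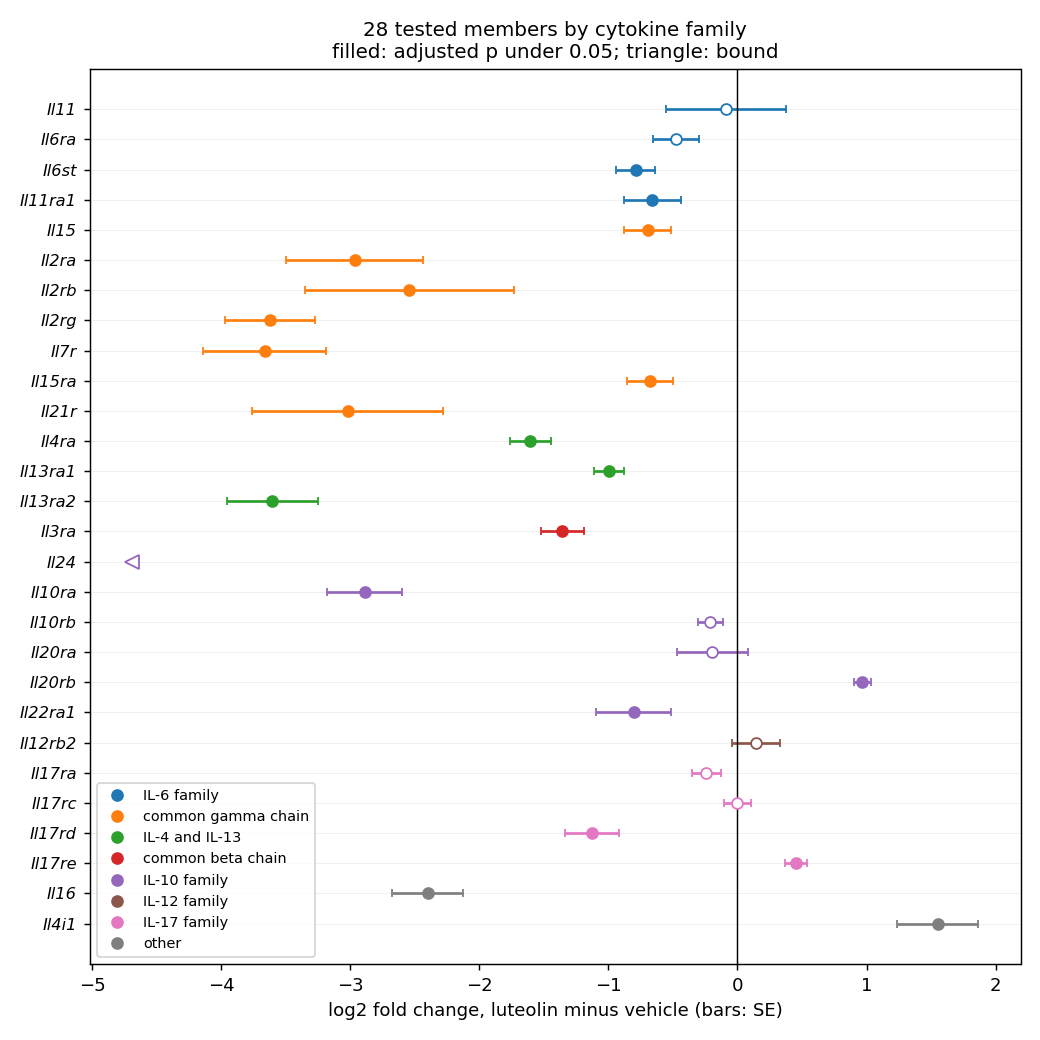
Log2 fold change (luteolin minus vehicle, horizontal axis) of the 28 tested members, grouped by cytokine family, with bars for the standard error; filled points passed an adjusted p of 0.05 and the open triangle is the bound for Il24, which had 0 luteolin counts. All points of the common gamma chain group and of the IL-4 and IL-13 receptors lie left of 0, and the filled points right of 0 are Il20rb, Il17re and Il4i1.

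Library totals ran from 16084855 to 16469699 estimated counts. Levels are given as CPM, the usual depth-scaled count, here with TMM factors, when a gene is compared between libraries, and as the deposited TPM, which is scaled by gene length, when genes are compared with each other. Libraries of one group correlated at 0.970 to 0.991 across genes and libraries of different groups at 0.901 to 0.919. Tissue content varied within groups: 6 skeletal muscle genes summed to 2.84, 2.47 and 42.7 CPM in the luteolin libraries and 62.1, 117 and 1.49 CPM in the vehicle libraries. Of all calls, 51.6% were lower under TMM scaling; with unscaled library sizes this share was 63.6%, and the median of all genes moved by -0.12 (log2).

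Promoter sequence was at hand for 39 of the 54 members (45 start sites; RefSeq, build GRCm38.p6). Il10, Il10ra, Il10rb, Il12rb1, Il15, Il17b, Il17ra, Il22ra2, Il23a, Il24, Il25, Il27, Il27ra, Il2rb and Il7 had no entry. The counts were made on mm9, so these positions were not joined to any read coordinate. The 250 bases before the start are shown for Il6, which had 0 luteolin counts, for Il13ra2, among the members with the largest decrease, and for Il17re and Il20rb, the receptor genes that rose. Capitals mark matches on either strand to the NF-kappaB motif, AP-1 TGANTCA, STAT TTCNNNGAA, C/EBP TTNNGNAAT and TATA box TATAAA, and no 2 matches overlap in these 4 sequences.
Il6 chr5:30012864-30013113 (+): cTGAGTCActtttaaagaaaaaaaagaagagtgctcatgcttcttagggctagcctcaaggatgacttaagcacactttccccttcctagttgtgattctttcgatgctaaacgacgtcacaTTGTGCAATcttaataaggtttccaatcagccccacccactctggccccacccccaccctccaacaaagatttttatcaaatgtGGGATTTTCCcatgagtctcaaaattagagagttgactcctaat
Il13ra2 chrX:147429193-147429442 (-): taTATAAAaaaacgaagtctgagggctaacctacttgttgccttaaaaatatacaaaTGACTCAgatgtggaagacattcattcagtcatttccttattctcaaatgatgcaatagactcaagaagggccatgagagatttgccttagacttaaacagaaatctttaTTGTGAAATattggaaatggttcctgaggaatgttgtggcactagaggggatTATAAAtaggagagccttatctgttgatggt
Il17re chr6:113458521-113458770 (+): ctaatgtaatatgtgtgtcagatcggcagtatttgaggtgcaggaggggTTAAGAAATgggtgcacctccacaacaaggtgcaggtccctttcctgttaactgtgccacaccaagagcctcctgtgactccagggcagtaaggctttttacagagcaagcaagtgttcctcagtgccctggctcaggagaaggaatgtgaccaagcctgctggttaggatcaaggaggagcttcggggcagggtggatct
Il20rb chr9:100486474-100486723 (-): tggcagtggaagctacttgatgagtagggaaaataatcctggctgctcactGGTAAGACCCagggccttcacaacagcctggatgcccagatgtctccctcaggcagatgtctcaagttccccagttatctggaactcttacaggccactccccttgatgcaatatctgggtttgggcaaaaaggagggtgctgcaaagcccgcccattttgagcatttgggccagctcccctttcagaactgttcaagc
Counting back from the start site, the Il6 window holds AP-1 letters at -249 to -243, C/EBP letters at -128 to -120 and NF-kappaB letters at -44 to -35. In the Il13ra2 window TATA box letters stand at -248 to -243 and again at -31 to -26, with AP-1 letters at -193 to -187 and C/EBP letters at -83 to -75. Il17re has only C/EBP letters, at -201 to -193, and Il20rb only NF-kappaB letters, at -199 to -190. Over the 45 member windows, NF-kappaB letters occurred in 7 (4.11% of all 32851 windows of that length in the table), AP-1 letters in 10 (6.75%), C/EBP letters in 7 (10.2%), STAT letters in 4 (7.02%) and TATA box letters in 4 (12.4%). NF-kappaB letters were found at Il6, Il2ra, Il16 and Il21r but also at Il20rb, Il17rc and Il23r, so members that fell, rose or did not pass all hold them. A match describes letters in a window and not a bound site.

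Among the ligands, 4 had enough reads to test. Il24 (gene ID 93672), a cytokine of the IL-20 group made by epithelia and leukocytes, had 0, 0 and 0 counts in the luteolin libraries and 13, 16 and 56 in the vehicle libraries. With the luteolin group set to a floor of 3 counts in all, it was at least 25.8-fold lower with luteolin (adjusted p = 0.00846, edgeR). Leaving out vehicle 3 gave at least 13.1-fold, and leaving out any 1 luteolin library at least 17.2-fold. Intervals and floors here cover counting error only. The highest vehicle library carried most of the Il24 reads, yet every vehicle library had reads and no luteolin library had any. Il16 (gene ID 16170), whose product attracts CD4-bearing cells, stood at 1.48, 1.23 and 1.03 CPM in luteolin corneas, against 6.31, 8.55 and 5.005 CPM in vehicle corneas (log2 fold change -2.40, SE 0.275, adjusted p = 0.000393). Il15 (gene ID 16168), a growth factor of natural killer and memory T cells, stood at 3.09, 3.38 and 3.15 CPM with luteolin and 4.38, 5.74 and 5.48 CPM with vehicle (log2 fold change -0.69, SE 0.182, adjusted p = 0.0136). Both groups were separate for Il16 and Il15, and the spread within the luteolin group was small for Il15. Il11, a gp130 cytokine of stroma and epithelium, stood at 0.838, 0.715 and 0.322 CPM with luteolin and 0.701, 0.878 and 0.417 CPM with vehicle, with overlapping groups (log2 fold change -0.09, SE 0.465).

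The remaining 16 ligands were too rare for the test. Il6 (gene ID 16193), a gp130 ligand and a main signal of acute inflammation, had 0, 0 and 0 counts with luteolin and 3, 6 and 43 with vehicle. That is at least 15.8-fold lower with luteolin against the 3-count floor, but at least 4.07-fold without vehicle 3, which held 43 of the 52 vehicle reads; without any 1 luteolin library the bound is at least 10.5-fold. Il10, the ligand that restrains macrophages, had 1 luteolin count and 6, 2 and 14 vehicle counts, a vehicle over luteolin ratio of 20.0 (95% exact counting interval 3.24 to 827), or 10.9 without vehicle 3 (interval 1.46 to 482). Without luteolin 2, which held the single count, Il10 was at least 4.47-fold lower. In an edgeR fit with no filter, the adjusted p was 0.0343 for Il6, 0.0266 for Il10 and 0.0286 for Il17d. With DESeq2 it was 0.000597 for Il6 and 0.0298 for Il10, and Il17d did not pass (adjusted p = 0.10). Il17d had 4, 3 and 2 counts with luteolin and 11, 14 and 7 with vehicle, so its groups did not overlap.

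Other rare ligands were uneven among the vehicle libraries. All 18 vehicle reads of Il17a, the defining cytokine of type 17 lymphocytes, came from vehicle 3, while the luteolin libraries had 1, 1 and 2. Il23a, which encodes the p19 subunit of IL-23, had 1, 2 and 3 counts with luteolin and 4, 4 and 13 with vehicle, again with the most in vehicle 3. Il7, a lymphocyte survival factor, had 4, 4 and 3 counts with luteolin and 6, 12 and 7 with vehicle. Vehicle 3 was thus the highest library for Il6, Il10, Il17a, Il23a and Il24, and what sets it apart was not tested. A few ligands had more reads with luteolin: Il17c, an epithelial IL-17 family cytokine that signals through the Il17re product, had 6, 1 and 12 counts with luteolin and 1, 2 and 2 with vehicle, Il17f had 9 luteolin and 6 vehicle counts, and Il5, the eosinophil growth factor, had 11 luteolin and 9 vehicle counts. Luteolin 2 had no more Il17c than the vehicle libraries, and none of these differences passed a fit with no filter. Il12a, Il12b, Il17b, Il19, Il20, Il25 and Il27 had 5 or fewer counts in either group, which does not allow a statement on their direction. Il24, Il20, Il19 and Il10 follow each other as neighbouring genes, and 1 read of Il10 was all that the luteolin group held of these 4 genes.

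**Figure D2:**
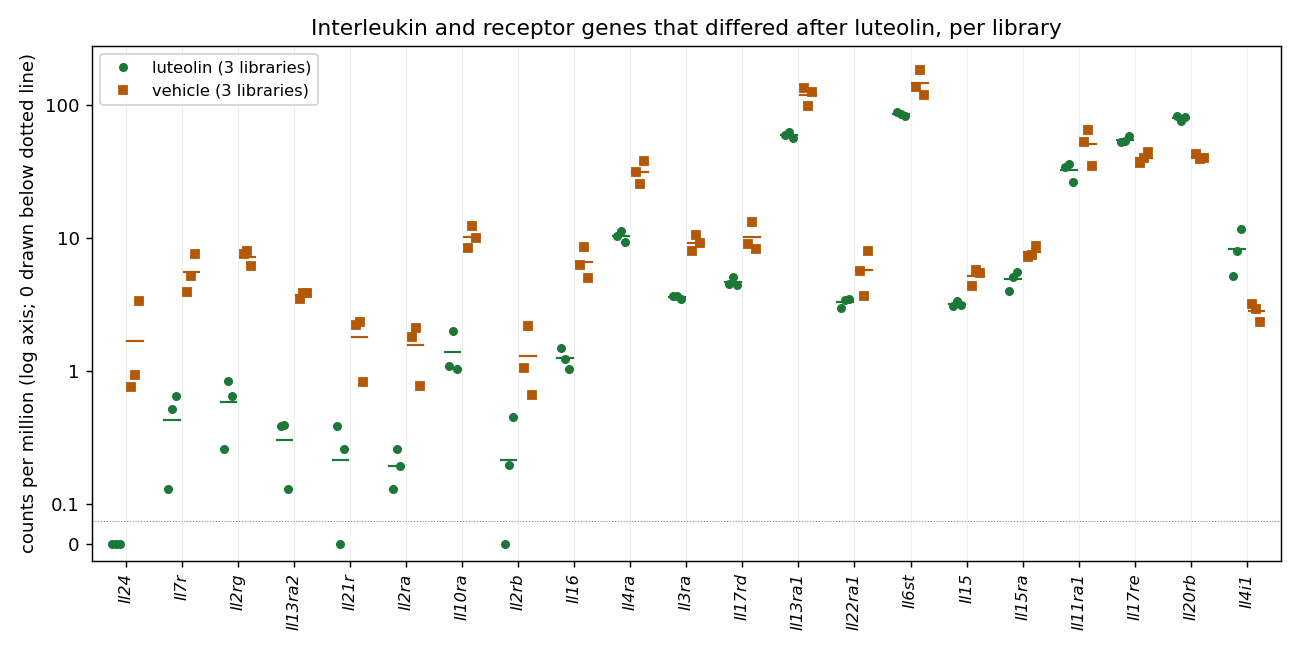
CPM (log axis; 0 drawn below the dotted line) of the 21 members that passed the test, ordered by log2 fold change, with 1 point per library, luteolin left of vehicle, and a line at each group mean. Points of both groups interleave only for Il11ra1, and Il24 is at 0 in all 3 luteolin libraries.

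The common gamma chain group serves lymphocytes and myeloid cells. Its 7 tested genes, 6 receptor chains and Il15, fell, but Il2ra, Il2rb, Il7r and Il21r were over the filter in vehicle libraries only and could enter the test only as lower genes. Il2rg was over it in 1 luteolin library and 3 vehicle libraries, so it too entered the test through the vehicle libraries. With a filter of 1 CPM in 3 libraries, 4 genes of the group fell. Il2rg (gene ID 16186), the common gamma chain itself, stood at 0.258, 0.845 and 0.643 CPM in luteolin corneas, against 7.53, 7.96 and 6.20 CPM in vehicle corneas, 12.3-fold lower (log2 fold change -3.62, SE 0.349, adjusted p = 0.000200). Il7r (gene ID 16197), the chain that binds IL-7 and takes part in the TSLP receptor, stood at 0.129, 0.520 and 0.643 CPM with luteolin and 3.91, 5.15 and 7.57 CPM with vehicle (log2 fold change -3.66, SE 0.478, adjusted p = 0.000657). For both genes the lowest vehicle library was several times as high as the highest luteolin library. Il2ra, the high-affinity chain of activated T cells, had 0.129, 0.260 and 0.193 CPM with luteolin and 1.81, 2.11 and 0.775 CPM with vehicle (log2 fold change -2.96, adjusted p = 0.00267). Il21r stood at 0.387, 0 and 0.257 CPM with luteolin and 2.22, 2.34 and 0.834 CPM with vehicle (log2 fold change -3.02, adjusted p = 0.0103), and its log2 fold change was -3.74 without luteolin 1. Il2rb, which serves IL-2 and IL-15, had 0, 0.195 and 0.450 CPM with luteolin and 1.05, 2.17 and 0.655 CPM with vehicle. Its call (log2 fold change -2.54, adjusted p = 0.0289) ended without luteolin 1, luteolin 2, vehicle 1 or vehicle 2 (adjusted p 0.0534 to 0.0865), and the log2 fold change was -3.63 without luteolin 3, -1.99 without luteolin 1 and -1.95 without vehicle 2.

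Il15ra, which presents IL-15 to neighbouring cells and is also made outside the lymphocyte lineage, also fell, with a smaller fold change than Il2rg or Il7r; the difference between genes was not tested. It stood at 3.997, 5.13 and 5.53 CPM with luteolin and 7.18, 7.49 and 8.76 CPM with vehicle (log2 fold change -0.68, SE 0.178, adjusted p = 0.0141), close to the change of its ligand Il15. Il9r had 2 luteolin counts and 5 vehicle counts and was not tested.

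All 3 receptor genes of IL-4 and IL-13, the type 2 cytokines, fell, but Il13ra2 was over the filter in vehicle libraries only and could enter the test only as a lower gene. Il4ra (gene ID 16190), which binds IL-4 and pairs with either the gamma chain or the Il13ra1 product, stood at 10.4, 11.4 and 9.26 CPM with luteolin and 31.1, 25.5 and 37.8 CPM with vehicle (log2 fold change -1.60, SE 0.160, adjusted p = 0.000229). Il13ra1 (gene ID 16164) stood at 59.7, 62.9 and 56.8 CPM with luteolin, against 135, 98.7 and 125 CPM with vehicle, 1.996-fold lower (log2 fold change -0.997, SE 0.116, adjusted p = 0.000411). Il13ra2 (gene ID 16165), a high-affinity receptor known as a decoy for IL-13, stood at 0.387, 0.390 and 0.129 CPM with luteolin and 3.50, 3.86 and 3.87 CPM with vehicle, 12.1-fold lower (log2 fold change -3.60, SE 0.354, adjusted p = 0.000218). The vehicle libraries of Il13ra2 were nearly equal, and far above every luteolin library. The transcripts of the ligands IL-4 and IL-13 themselves had no value here. In the common beta chain group, Il3ra, the IL-3 binding chain, stood at 3.67, 3.64 and 3.47 CPM with luteolin and 7.94, 10.6 and 9.12 CPM with vehicle (log2 fold change -1.36, SE 0.164, adjusted p = 0.000480), and Il5ra had 1 count in all.

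Of 3 tested receptor chains of the gp130 group, Il6st and Il11ra1 fell and Il6ra did not pass, and the call of Il11ra1 depended on single libraries. Il6st (gene ID 16195), which encodes gp130, stood at 88.1, 85.3 and 82.03 CPM with luteolin and 137, 185 and 119 CPM with vehicle, 1.73-fold lower (log2 fold change -0.79, SE 0.150, adjusted p = 0.00342). Il6ra, which binds IL-6 before gp130 joins, stood at 6.83, 4.68 and 5.60 CPM with luteolin and 7.24, 8.37 and 8.22 CPM with vehicle. Its groups did not overlap but it missed the threshold (log2 fold change -0.48, adjusted p = 0.0512), and it passed without luteolin 1 (-0.64, adjusted p = 0.0267) and with library sizes only (-0.59, adjusted p = 0.0237). Il11ra1, the IL-11 binding chain, stood at 33.98, 36.3 and 26.4 CPM with luteolin and 53.1, 64.4 and 35.1 CPM with vehicle, with overlapping groups. Its call (log2 fold change -0.66, adjusted p = 0.0352) ended without any 1 library except vehicle 3 (adjusted p 0.0538 to 0.109), which leaves Il6st as the gp130 group gene that fell, with Il6ra added when luteolin 1 is the library left out. Counts of Il11ra1 and of its near-identical copy Il11ra2 had decimals in all 6 libraries, as when reads are divided between copies, and Il11ra1 also overlaps Ccl27a on the other strand. Il27ra had 7 luteolin and 16 vehicle counts and Il31ra 1 luteolin and 4 vehicle counts, too few to test.

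Receptors of the IL-10 family went both ways. Il10ra (gene ID 16154), the IL-10 binding chain of leukocytes, stood at 1.10, 2.01 and 1.03 CPM with luteolin and 8.47, 12.4 and 9.95 CPM with vehicle, 7.40-fold lower (log2 fold change -2.89, SE 0.293, adjusted p = 0.000243). Il20rb (gene ID 213208), the chain that receptors for IL-19, IL-20 and IL-24 share, stood at 83.3, 75.5 and 81.1 CPM with luteolin and 43.2, 39.6 and 39.7 CPM with vehicle, 1.96-fold higher (log2 fold change 0.97, SE 0.0671, adjusted p = 7.30e-05). The gap between the groups of Il20rb was several times the spread within either. Il22ra1, an epithelial chain for IL-22 and, with Il20rb, for IL-20 and IL-24, stood at 2.97, 3.44 and 3.47 CPM with luteolin and 5.66, 3.69 and 7.92 CPM with vehicle. Its call (log2 fold change -0.80, adjusted p = 0.0444) ended without any 1 library except vehicle 2 (adjusted p 0.0901 to 0.122).

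The partner chains Il20ra and Il10rb of that family did not pass. Il20ra stood at 7.54, 10.2 and 7.59 CPM with luteolin and 11.6, 5.85 and 11.5 CPM with vehicle (log2 fold change -0.19, adjusted p = 0.574), where vehicle 2 was below every luteolin library. Il10rb, a chain of the receptors for IL-10, IL-22 and type III interferons, stood at 35.1, 39.5 and 35.3 CPM with luteolin and 38.02, 47.00 and 42.01 CPM with vehicle (log2 fold change -0.21, adjusted p = 0.0929), and it passed without vehicle 1 (-0.29, adjusted p = 0.0367) and with library sizes only (-0.32, adjusted p = 0.0174). Il22ra2, the soluble IL-22 binding protein, had 0, 0 and 0 counts with luteolin and 3, 1 and 3 with vehicle, at least 2.13-fold lower against the 3-count floor and at least 1.41-fold without any 1 luteolin library.

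Receptor genes of the IL-17 family also differed among themselves. Il17re (gene ID 57890), the epithelial receptor chain for IL-17C, stood at 52.9, 53.9 and 58.4 CPM with luteolin and 36.6, 39.9 and 44.1 CPM with vehicle, 1.37-fold higher (log2 fold change 0.45, SE 0.0844, adjusted p = 0.00310). Il17rd (gene ID 171463), known also as Sef, a brake on fibroblast growth factor signalling, stood at 4.51, 5.07 and 4.44 CPM with luteolin and 9.05, 13.2 and 8.28 CPM with vehicle (log2 fold change -1.12, SE 0.210, adjusted p = 0.00314). Groups did not overlap for either gene. Il17rc, the IL-17A and IL-17F chain and the direct neighbour of Il17re in the genome, stood at 50.4 ± 2.59 CPM with luteolin and 50.4 ± 7.09 CPM with vehicle (SD, n = 3 each), with a log2 fold change of -0.0009 (SE 0.106) whose sign depended on the scaling. Il17ra, the shared chain, stood at 14.5, 15.5 and 14.3 CPM with luteolin and 15.6, 16.97 and 19.8 CPM with vehicle. It did not pass with TMM factors (log2 fold change -0.24, adjusted p = 0.102) and did with library sizes only (-0.36, adjusted p = 0.0233). Il17rb had 11 luteolin and 16 vehicle counts.

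In the IL-12 group, Il12rb2 was the 1 gene with enough reads. It stood at 7.80, 9.68 and 7.91 CPM with luteolin and 8.76, 6.03 and 8.22 CPM with vehicle, with overlapping groups (log2 fold change 0.14, SE 0.184, adjusted p = 0.532). Like those of Il11ra1, counts of Il12rb2 had decimals in all 6 libraries. Its partner chain Il12rb1 had 2, 0 and 4 counts with luteolin and 5, 12 and 10 with vehicle, and Il23r, an IL-23 receptor chain, had 0, 2 and 1 with luteolin and 1, 5 and 3 with vehicle. All vehicle libraries of Il12rb1 exceeded all luteolin libraries, but the gene was below the filter.

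Il4i1 (gene ID 14204), the L-amino acid oxidase gene named for its induction by IL-4, had the largest increase among the tested members. It stood at 5.16, 8.06 and 11.6 CPM with luteolin and 3.21, 2.93 and 2.32 CPM with vehicle, 2.93-fold higher (log2 fold change 1.55, SE 0.313, adjusted p = 0.00446). The luteolin libraries spread over more than a 2-fold range, and all lay above the vehicle libraries. Reads were divided with the neighbouring copy Il4i1b in luteolin 3 and vehicle 1, and the summed counts of both genes were 80, 124 and 186 with luteolin and 60, 50 and 39 with vehicle. In GENCODE M21, exons of Il4i1 overlap Nup62 on the same strand and Atf5 and Tbc1d17 on the other. There, exons of another gene overlap 9 of the 28 tested members (Il10rb, Il11ra1, Il12rb2, Il16, Il2rg, Il3ra, Il4i1, Il4ra and Il6ra), and since the sources used here do not state whether counting used strand, reads of such partners cannot be told apart.

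By length-scaled level, 7 receptor chains stood above all other tested members in every library of both groups. In luteolin corneas Il20rb had the highest mean TPM, 54.1 ± 3.10 (SD, n = 3), followed by Il17rc (37.02 ± 1.91), Il10rb (34.7 ± 2.19), Il17re (34.4 ± 1.57) and Il11ra1 (32.6 ± 5.37). Il20rb lay above all other members in every luteolin library, whereas each of the other 4 overlapped the next of them in its library values. With vehicle the order began with Il11ra1 (51.6 ± 15.5), Il13ra1 (51.2 ± 8.16), Il6st (41.8 ± 9.85), Il10rb (40.2 ± 4.02) and Il17rc (36.8 ± 4.62), each overlapping the next in its library values, and Il20rb came after them at 27.6 ± 1.77. Il20rb thus took a different place in the 2 groups. Below these, vehicle means ran from 11.6 ± 2.05 TPM for Il3ra down to 0.513 ± 0.304 TPM for Il2rb. In luteolin corneas Il2rg, Il10ra, Il16, Il7r, Il13ra2, Il21r, Il2ra and Il2rb were each under 1 TPM. So were Il22ra1, Il17rd, Il11 and Il24.

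**Figure D3:**
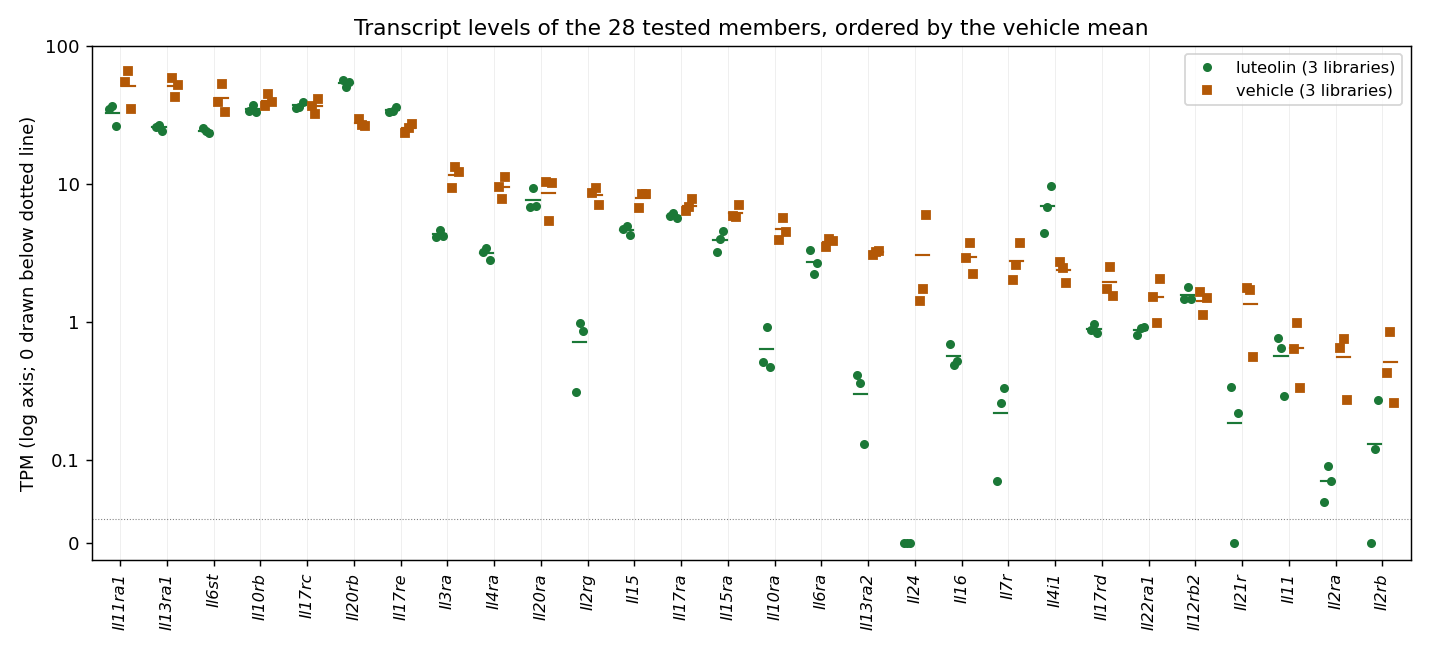
Deposited TPM (log axis; 0 drawn below the dotted line) of the 28 tested members, 1 point per library, luteolin left of vehicle, ordered by the vehicle mean. The first 7 genes stay above all others in every library. All luteolin points of Il2rg, Il10ra, Il16, Il13ra2, Il7r, Il21r, Il2ra, Il2rb, Il22ra1, Il17rd, Il11 and Il24 lie under 1 TPM.

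Because receptors work as pairs, the ratio of the TPM of both chains was taken within each library for 12 known pairs. In 8 of the 12 the luteolin and vehicle libraries did not overlap, each with an exact two-sided permutation p of 0.1, the smallest that 3 libraries against 3 allow, and 0.15 after Benjamini-Hochberg adjustment over the 12. Separation was common in these data, as the groups did not overlap for 67.4% of all tested genes. The Il10ra to Il10rb ratio was 0.0151, 0.0247 and 0.0142 with luteolin and 0.107, 0.127 and 0.114 with vehicle. The Il20ra to Il20rb ratio was 0.119, 0.184 and 0.127 with luteolin and 0.346, 0.202 and 0.383 with vehicle, and that of Il22ra1 to Il20rb 0.0140, 0.0179 and 0.0169 with luteolin and 0.0513, 0.0365 and 0.0781 with vehicle. So Il20rb was in larger excess over either partner in every luteolin library. Il17re stood at 5.70, 5.45 and 6.38 times Il17ra with luteolin and 3.70, 3.74 and 3.49 times with vehicle. Il4ra stood at 10.4, 3.51 and 3.27 times Il2rg with luteolin and 1.11, 0.838 and 1.61 times with vehicle, but at 0.124, 0.128 and 0.116 of Il13ra1 with luteolin and 0.163, 0.183 and 0.214 with vehicle. Il4ra was thus below Il13ra1 in every library and above Il2rg in every library but vehicle 2. The ratio of Il3ra to Csf2rb, the common beta chain gene, was also higher in every luteolin library (9.45, 8.63 and 11.8, against 2.45, 2.86 and 2.09 with vehicle). For Il6ra to Il6st, Il11ra1 to Il6st, Il22ra1 to Il10rb and Il7r to Il2rg the groups overlapped (exact permutation p of 0.3, 0.5, 0.4 and 0.6 in that order).

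**Figure D4:**
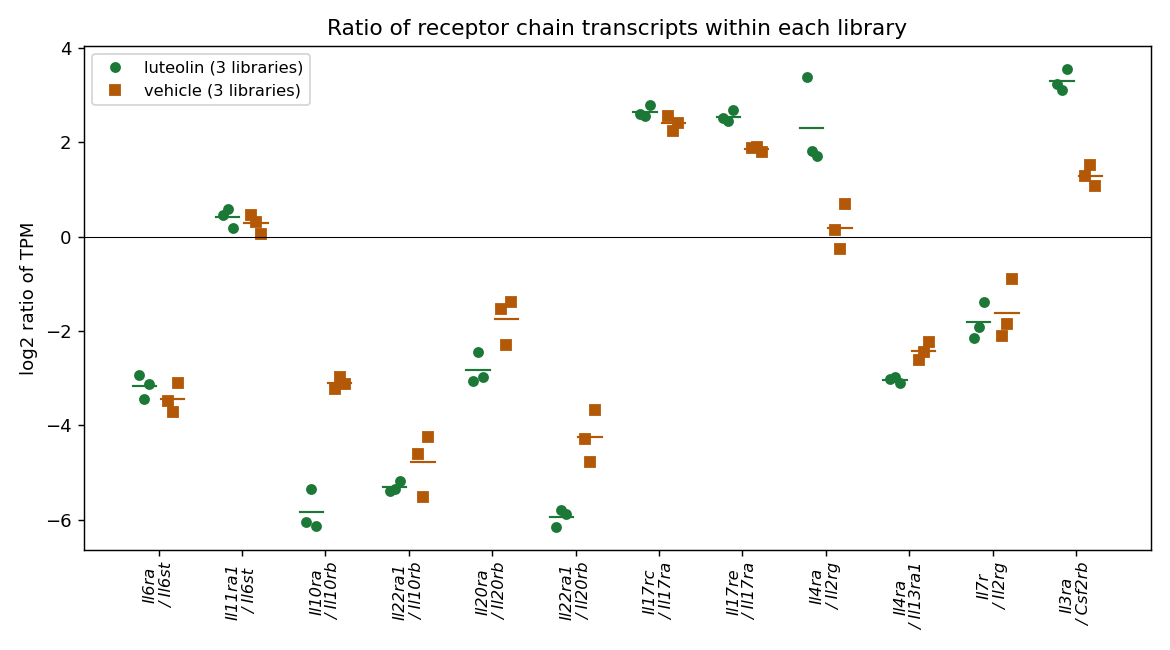
Log2 ratio of the TPM of receptor chains within each library for 12 known pairs, with 1 point per library, luteolin left of vehicle, and a line at each group mean. The groups are separate for 8 pairs, with Il10ra/Il10rb, Il4ra/Il2rg and Il3ra/Csf2rb farthest apart.

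Markers of macrophages, neutrophils and T and natural killer cells were lower in the luteolin libraries, while the summed level of mast cell markers was higher and that of B cell markers overlapped between groups. The marker counts here and in the next paragraph stand beside 30.4% lower and 28.5% higher among all tested genes. All 8 macrophage markers fell, and their sum was 33.8 to 45.9 CPM in luteolin libraries and 198 to 349.5 CPM in vehicle libraries. Their part in the lower Il10ra, Il2rg, Il4ra and Il3ra was not tested. Of 7 neutrophil markers the 4 tested fell, with a sum of 1.23 to 2.38 CPM with luteolin and 32.6 to 48.4 CPM with vehicle, and S100a8 and Ly6g were at 0 in every luteolin library. Markers at or near 0 in the luteolin libraries, such as S100a8, could enter the test only as lower genes. Of 9 markers of T and natural killer cells 3 could be tested and fell, 5 without vehicle 3, with a sum of 5.42 to 10.8 CPM with luteolin and 23.8 to 41.5 CPM with vehicle. Cd4 (-3.17, or -4.26 without luteolin 3), Lck (-1.88) and Thy1 (-2.06) fell on the log2 scale, and no marker of that list was at 0 in either group. Lymphocyte markers were thus few but present where Il2ra, Il2rb, Il21r and Il7r were low, and their part was not tested either. Of 5 B cell markers 1 could be tested and did not pass (Cd79b, log2 fold change 0.01), with sums of 1.03 to 1.10 CPM with luteolin and 0.526 to 1.52 CPM with vehicle. Of 5 tested mast cell markers 4 fell and Kit, which also marks other cells, rose (1.41); Kit made most of a sum of 317 to 329.5 CPM with luteolin and 123 to 152 CPM with vehicle. No eosinophil marker could be tested, and their sum was 0 to 0.0650 CPM with luteolin and 0.119 to 0.585 CPM with vehicle.

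Other tissue of the sample changed in both directions. All 6 markers of blood vessel endothelium fell (Pecam1, Cdh5, Plvap, Esam, Vwf and Tie1). Their sums were 18.2 to 25.0 CPM with luteolin and 128 to 199 CPM with vehicle. All 3 tested conjunctival keratins also fell (1734 to 2682 CPM with luteolin, 4076 to 4401 CPM with vehicle). All 6 corneal epithelial markers rose, with sums of 69162 to 71123 CPM with luteolin and 39758 to 46918 CPM with vehicle. Their log2 fold changes ran from 0.48 (Krt5) to 0.87 (Krt12) with a median of 0.67, beside 0.97 for Il20rb and 0.45 for Il17re, which lie above and below that range; the part of epithelial content was not tested. Of 5 keratocyte genes 1 rose and 4 did not pass (2 rose without vehicle 2, 2 fell without vehicle 3 and 1 fell without luteolin 2), with overlapping sums of 1294 to 2520 CPM with luteolin and 1331 to 4974 CPM with vehicle, beside which Il11ra1, Il13ra1 and Il6st are also read. None of 5 tested skeletal muscle genes passed, but 3 fell without vehicle 3 and 1 without luteolin 3.

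**Figure D5:**
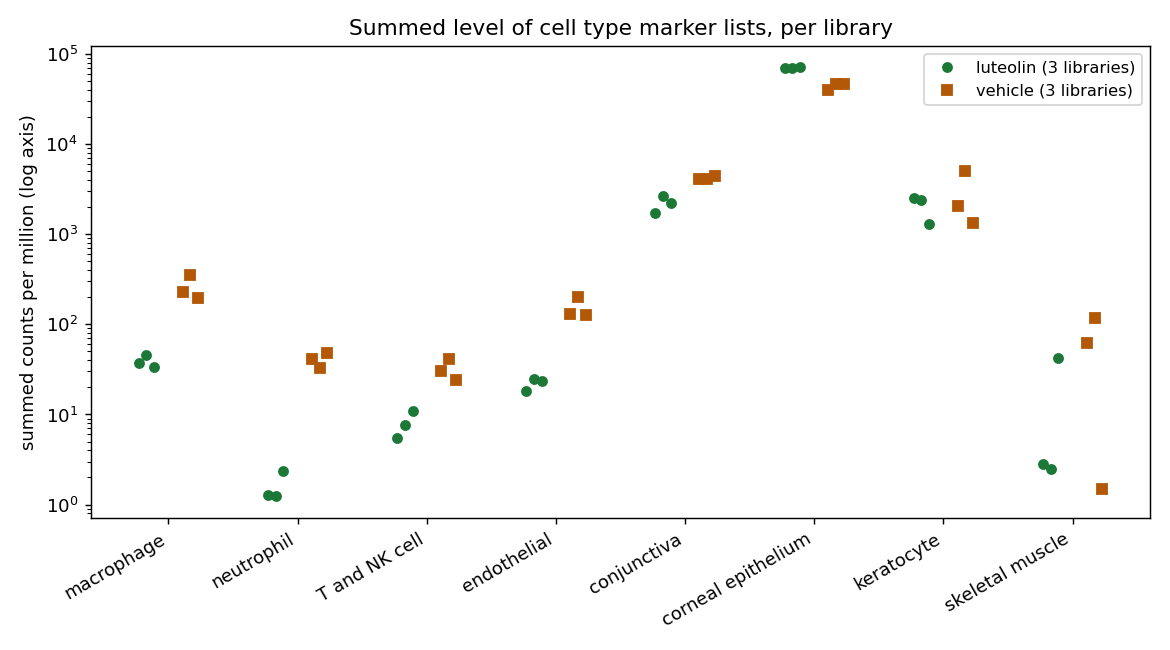
Summed CPM (log axis) of 8 lists of cell type markers, 1 point per library, luteolin left of vehicle. Macrophage, neutrophil, T and NK cell, blood vessel endothelial (drawn as endothelial) and conjunctival sums are lower in every luteolin library than in any vehicle library. The corneal epithelial sum is higher in every luteolin library than in any vehicle library, while keratocyte and skeletal muscle sums overlap between groups.

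Genes that work with these receptors, listed by their role, went both ways. Among all tested genes 30.4% were lower and 28.5% higher, so changes in both directions were common. The counts here and in the lists that follow are to be read beside those shares. Among 10 gp130 family genes without an Il symbol, 4 fell and 5 rose. Osm, the oncostatin M gene of leukocytes, had 1 luteolin count and 85 vehicle counts, Ebi3, a subunit of IL-27, changed by -2.49 and the cytokine gene Clcf1 by -1.09 on the log2 scale. Lif was the other member that fell (-1.81, or -0.97 without vehicle 3, and not called without luteolin 1 or luteolin 2), and the 5 that rose were 2 with library sizes only and 2 or 3 without any 1 library. Of 15 JAK, STAT and SOCS genes tested, 4 fell and 7 rose, or 4 rose with library sizes only. Socs3 and Socs2, feedback inhibitors induced by STAT signalling, changed by -3.68 and -2.35, while Jak1 (0.41) and Pias1 (0.64) rose; Stat3 stood at 197 ± 6.59 CPM with luteolin and 164 ± 7.48 CPM with vehicle (SD, n = 3 each).

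Beyond the signal transducers, most tested genes of the other lists fell. Osm and Ebi3 above and Saa3, Hp, Chil3, Ccl22, Cxcl1, Cxcl9 and Cxcl10 below could pass the filter only through the vehicle libraries. They could thus enter the test only as lower genes, and the counts describe the tested genes and not the whole lists. Of 5 genes of the common beta and TSLP receptors and ligands, 3 fell: Tslp, an epithelial cytokine that signals through the Il7r product, stood at 1.16 ± 0.295 CPM with luteolin and 23.9 ± 5.53 CPM with vehicle, and Csf2rb (-3.40) and its close copy Csf2rb2 (-3.18) may share reads. Crlf2 and Csf2ra did not pass, and without vehicle 2 Csf2ra rose (0.32). In the IL-17 response list 4 of 8 tested genes fell. On the log2 scale the changes were -4.83 for the chemokine Cxcl5, -5.63 for Cxcl1 (-4.52 without vehicle 3), -5.28 for lipocalin Lcn2 (-3.93 without vehicle 2, -5.98 without luteolin 3) and -2.75 for the RNA-binding Arid5a. Nfkbiz did not pass, and rose without vehicle 3 (0.44). Of 5 type 2 genes 4 fell, Arg1, arginase (-0.92), Ccl22 (4 luteolin counts, 111 vehicle counts) and Chil3 (0 luteolin counts, 162 vehicle counts), and the eosinophil chemokine Ccl11 (-1.69), whose call ended without luteolin 1, luteolin 2, vehicle 1 or vehicle 2 (adjusted p 0.0659 to 0.105); Retnla did not pass (0.49). Of 4 type 1 genes 3 fell, Ifngr1 (-0.88), Cxcl9 (0 luteolin and 120 vehicle counts) and Cxcl10 (3 luteolin and 101 vehicle counts), and Ifngr2 did not pass. All 3 tested genes of the acute phase list fell: Saa3 (3 luteolin and 7291 vehicle counts), Hp (1 luteolin and 123 vehicle counts) and Lbp (-2.09 on the log2 scale).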

How the data were processed

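Per the labels' protocols, whole corneas were flash frozen, RNA was extracted with Trizol and Illumina TruSeq libraries were made; the 6 libraries were grouped by title. Bowtie2 2.2.5, RSEM 1.2.12 and the mm9 build appear in the submitters' processing notes; annotation and strand setting: not given in the sources used here. The authors deposited, per the file headers, estimated counts (not whole in 10.3% to 10.8% of values), FPKM, TPM and a normalized count signal, which was not used; 8 columns of group averages were not used either. Estimated counts were rounded and fitted with edgeR 4.0.16 in R 4.3.3: filterByExpr (minimum count 10, minimum total 15) kept 13838 genes. After TMM scaling, luteolin was tested against vehicle by quasi-likelihood with no block for replicate numbers, with Benjamini-Hochberg adjustment over all tested genes and a threshold of 0.05. SE is the log2 fold change divided by the square root of F. Alternatives were DESeq2 1.42.0, other scaling and filters, limma 3.58.1 on log2 FPKM, a replicate block and each library left out. The code was tested on simulated data. The members, the gene lists and the receptor pairs were chosen with earlier results of these data known. Every tested member was named, and from each list the 4 genes with the smallest p or those going the other way; other list genes were named after their values were seen. Some list genes that this rule names are not reported here. No set test was run: lists are described by counts.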

Additional observations from a re-analysis of the deposited data

How the results depend on the processing

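The numbers of members that fell and rose kept within 1.5 times under all 16 alternatives: 15 to 21 fell, and Il20rb, Il17re and Il4i1 rose in each. Of the 21 called members 18 kept the call under every alternative that gave a value, and Il11ra1, Il2rb and Il22ra1 lost it under at least 1; Il2rb was also lost with limma on log2(FPKM + 1) (-0.33, adjusted p = 0.0661). No called member changed sign. Il6ra, Il10rb and Il17ra passed under some. The fits with DESeq2 and with no filter also held the 26 members below the main filter, and the filter of 1 CPM in 3 libraries held fewer members. Fits without 1 library were filtered anew. Counts and medians under these settings thus cover other members than the main fit, while the scaling and limma fits used the same members. The median log2 fold change of the members was -1.05 with DESeq2, -0.89 with upper quartile factors, -0.91 with library sizes only, -1.35 with no filter, -0.70 with a filter of 1 CPM in 3 libraries and -0.59 with limma on log2(FPKM + 1) (upper quartile factors and library sizes only moved the median of all genes by -0.10 and -0.12), and -0.93 to -0.80 with 1 library left out. Uncalled values near 0 changed sign: Il17rc was 0.0085 with DESeq2, 0.000777 with relative log expression factors, 0.000318 with no filter and 0.0062 with a replicate block, and -0.0982 to 0.0848 with 1 library left out; Il11 was -0.37 to 0.22, Il12rb2 -0.0041 to 0.24, and the Il7r to Il2rg log2 ratio difference -0.44 to 0.17 (0.17 without vehicle 3). The cause was not tested.

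In a fit with replicate block, 17 members fell and 3 rose, and 7934 genes were called, against 8157 without it; Il22ra1 lost its call (-0.75, adjusted p = 0.0525). Deviations of same-numbered libraries from their group means had correlations of -0.15, 0.03 and 0.01. With 3 libraries per group, such values cannot settle whether same-numbered libraries were paired. At this depth 16 of 20 ligands were below the filter.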
